A study of Hordeum vulgare with 6 samples.

Results

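Among the genes listed by the study as both bound by HvMADS1 and changed in *mads1*, 40 encode transcription factors or other annotated DNA-binding proteins outside the flowering, hormone and cell cycle genes that the study names. HvMADS1 is an E-class MADS-box protein of barley, itself a transcription factor, and E-class proteins work in complexes with other MADS-box proteins to specify floral organs. A transcription factor binds short DNA motifs near other genes and raises or lowers their transcription, so regulators among the targets of another regulator can pass a change on to further genes. The families here are known for distinct roles in plants, such as MYB and NAC proteins in thickening of the cell wall, TCP proteins in the growth of lateral organs, WRKY proteins in defence and AP2/ERF proteins in development and stress.

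The genes were found by words in the annotations of the study's list of putative direct targets, which joins RNA-seq with CUT&Tag (a method that maps the DNA on which a protein sits). The words, such as transcription factor, MYB, WRKY or DNA-binding, matched 45 genes of the list. Of these, 3 genes of floral organ identity and 2 others (MYB61 and a KNOTTED-like homeobox gene) were left out. The remaining 40 stand beside 565 other genes of the list, in a table of 26933 genes. One of the 40 is annotated as a single-strand DNA-binding protein, which is not a transcription factor by its name.

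RNA was compared between *mads1* and WT barley (cv. Golden Promise), each with 3 libraries from lemma and awn of stage W7.5, labelled as spikelet in the deposited records. The *mads1* plants carry a CRISPR-Cas9 knockout of *HvMADS1* and were grown, as were the WT plants, without a treatment. Which of the knockout lines entered the libraries is not stated in the sources used here, and each library is a pool of several plants. The values are FPKM, fragments relative to gene length and to the fragments mapped in a library, so levels can be set side by side between genes, but the number of reads behind them is unknown. Summed FPKM was 939663 to 966119 in the *mads1* libraries and 993575 to 994495 in the WT libraries, and on log2(FPKM + 1) Pearson's r across the 17996 genes tested was 0.982 to 0.994 between libraries of one genotype and 0.884 to 0.941 between genotypes.

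Genes expressed in the lemma and awn were present in all libraries. *HvDL*, a YABBY gene of the lemma and carpel, was at 53.9, 49.8 and 65.7 FPKM in *mads1*, against 80.6, 96.4 and 96.5 FPKM in WT. The gene annotated as protodermal factor 1 (HORVU.MOREX.r3.7HG0718530), known in *Arabidopsis* as a marker of the epidermal layer, was at 2.20, 3.99 and 1.17 FPKM in *mads1*, against 65.1, 36.3 and 32.6 FPKM in WT. *MADS2*, a B-class gene of lodicules and stamens, was at 6.45 to 7.44 FPKM in *mads1* and 10.8 to 13.3 FPKM in WT, so no library was free of it. *HvSHI*, of a gene family known in barley for awn growth, was the remaining marker. All 4 are themselves genes that the same contrast picked, and each was lower in *mads1*. Their summed level was 79.3 to 87.6 FPKM in *mads1* and 204 to 216 FPKM in WT. The part of these markers in the results was not tested. In whole tissue, fewer cells of a type and less RNA per cell cannot be told apart.

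The study chose its list from the same contrast on these 6 libraries, with false discovery rate and a change of at least 1.5-fold as the limits. The differences between *mads1* and WT below are therefore a description of the listed genes, without a test. A gene is called lower or higher where limma's adjusted p on log2(FPKM + 1) was below 0.05 and the change was at least 1.5-fold. Of the 40 genes, 37 reached 1 FPKM in at least 3 libraries and entered the fit, 30 of them lower and 7 higher in *mads1*. Over all genes tested, 21.1% were past the same limits, 14.5% lower and 6.6% higher. By adjusted p alone, again 30 of the 37 were lower and 7 higher, against 43.2% of all genes tested in either direction. In 6 of the 37, libraries of one genotype alone reached 1 FPKM, so these entered the fit only through the genotype in which they were high. The *mads1* values lay entirely below the WT values for 33 of the 40 genes and entirely above them for 7, against 55.9% of all genes tested with no overlap in either direction. Since the list was drawn from this contrast, nothing follows from these shares. The median log2 fold change was -1.06 over the 37 genes in the fit and -0.96 over the 40, while the median over all genes tested was 0.05. The genes nearest the 1.5-fold limit (0.58 on the log2 scale) were the GATA gene, at -0.61, and a DOF gene, at -0.66. In the remainder of the list, 27 genes entered the fit without passing these limits.

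**Figure D1:**
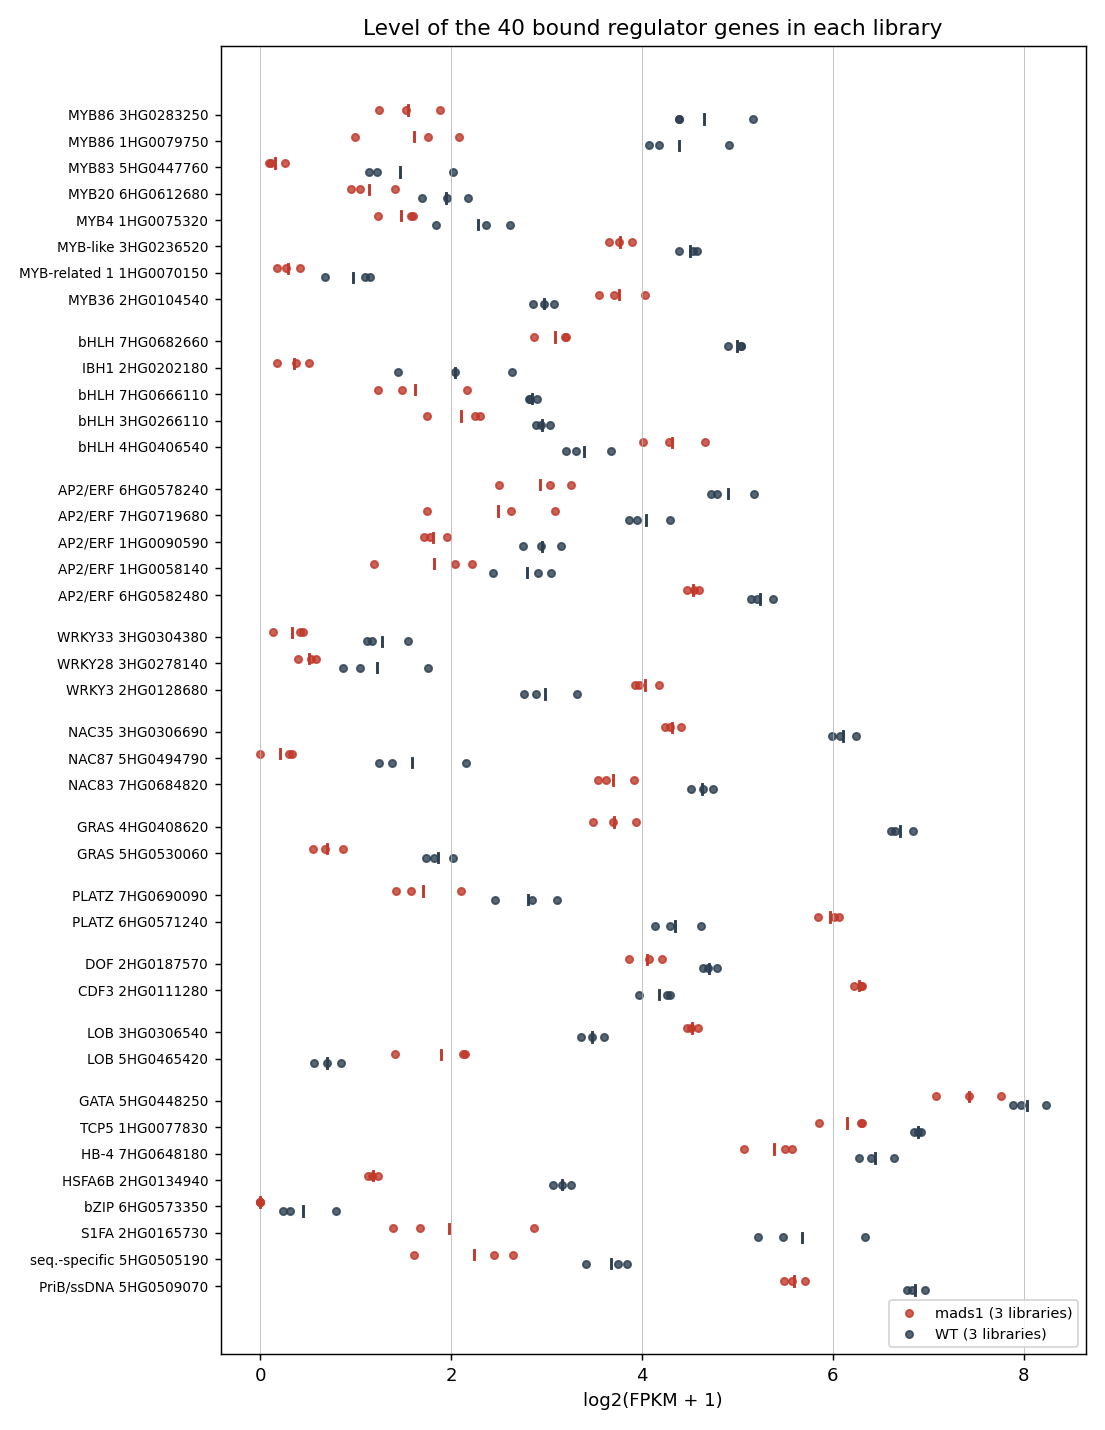
Level of each of the 40 genes on log2(FPKM + 1), with 1 point per library, *mads1* in red above WT in dark blue and a short line at the mean of each genotype. No gene has overlapping *mads1* and WT values, and *mads1* lies on the left for 33 genes and on the right for 7.

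By annotation words, MYB proteins were the largest family of the 40 genes. Of its 8 genes, 6 were lower and 1 higher in *mads1* and 1 was under the limit on low values. The 2 genes annotated as MYB86 had the largest log2 fold changes of the family on the FPKM + 1 scale. HORVU.MOREX.r3.3HG0283250 was at 1.88, 2.69 and 1.37 FPKM in *mads1*, against 34.8, 19.9 and 20.0 FPKM in WT. HORVU.MOREX.r3.1HG0079750 was at 2.38, 3.24 and 0.99 FPKM in *mads1*, against 29.1, 17.1 and 15.8 FPKM in WT. In each gene *mads1* replicate 2 and WT replicate 1 were the highest of their genotypes, and the log2 fold changes were -3.09 (standard error 0.24) and -2.77 (standard error 0.31). The older identifiers that the study pairs with them are neighbouring numbers on chromosome 1H, whereas the newer identifiers lie on chromosomes 3H and 1H. How the counting tool divided reads between them was not tested, so their values are uncertain as separate measurements.

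MYB83 (HORVU.MOREX.r3.5HG0447760), whose *Arabidopsis* namesake switches on secondary wall formation, was near 0 in *mads1* and entered the fit through WT alone. It averaged 0.117 ± 0.072 FPKM in *mads1* and 1.86 ± 1.03 FPKM in WT (SD, n = 3 each), with WT replicate 1 at 2.40 times the mean of the other WT libraries. MYB20 (HORVU.MOREX.r3.6HG0612680), named after an activator of lignin genes in *Arabidopsis*, averaged 1.22 ± 0.386 FPKM in *mads1* and 2.88 ± 0.65 FPKM in WT (SD, n = 3 each). MYB4 (HORVU.MOREX.r3.1HG0075320) shares its name with a repressor of phenylpropanoid genes in *Arabidopsis* and was lower too, at 1.80 ± 0.382 FPKM in *mads1* and 3.97 ± 1.3 FPKM in WT (SD, n = 3 each). Namesakes of activators and of a repressor of the same pathway were thus lower together, although MYB4 was no longer past the limits without *mads1* replicate 1 (log2 fold change -0.68), WT replicate 1 (-0.63) or WT replicate 3 (-0.76). The MYB-like gene HORVU.MOREX.r3.3HG0236520 was expressed at a higher level than these, at 12.7 ± 1.16 FPKM in *mads1* and 21.7 ± 1.57 FPKM in WT (SD, n = 3 each). The MYB-related gene HORVU.MOREX.r3.1HG0070150 stayed under the limit on low values, at 0.34, 0.13 and 0.21 FPKM in *mads1* and 1.22, 1.14 and 0.60 FPKM in WT. MYB36 (HORVU.MOREX.r3.2HG0104540), known in *Arabidopsis* roots for the Casparian strip, was the one member of the family above WT, at 12.7 ± 2.38 FPKM in *mads1* and 6.86 ± 0.61 FPKM in WT (SD, n = 3 each).

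All 3 NAC genes were lower in *mads1*. NAC35 (HORVU.MOREX.r3.3HG0306690), named after an *Arabidopsis* gene that delays flowering, was at 20.3, 18.6 and 18.0 FPKM in *mads1*, against 62.6, 66.3 and 74.9 FPKM in WT. Its replicates lay close together in both genotypes, and its log2 fold change of -1.78 had a standard error of 0.09. NAC87 (HORVU.MOREX.r3.5HG0494790), whose *Arabidopsis* namesake takes part in programmed cell death of the root cap, was at 0, 0.23 and 0.26 FPKM in *mads1*, against 3.47, 1.37 and 1.61 FPKM in WT. Like MYB83, it entered the fit through WT alone. NAC83 (HORVU.MOREX.r3.7HG0684820), the name of a repressor of xylem vessel formation in *Arabidopsis*, averaged 12.0 ± 1.87 FPKM in *mads1* and 23.8 ± 2.03 FPKM in WT (SD, n = 3 each).

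Genes of the phenylpropanoid and lignin pathway, which MYB and NAC proteins regulate in other plants, are also in the list of targets. Words such as laccase, peroxidase, phenylalanine ammonia lyase and O-methyltransferase matched 18 genes, 16 lower and 1 higher in *mads1* and 1 under the limit on low values. The words take in whole families, such as the peroxidases, and whether each gene acts in this pathway was not tested. A laccase 17 gene (HORVU.MOREX.r3.3HG0302570), of a family that polymerises lignin, was at 0.09, 0.16 and 0.10 FPKM in *mads1*, against 18.4, 8.36 and 8.80 FPKM in WT. This laccase gene entered the fit through WT alone. Laccase 12 (HORVU.MOREX.r3.5HG0465270) differed less, at 2.63, 3.14 and 2.60 FPKM in *mads1*, against 10.4, 7.07 and 6.38 FPKM in WT. The higher gene, a peroxidase (HORVU.MOREX.r3.3HG0254990), averaged 22.6 FPKM in *mads1* and 14.5 FPKM in WT. The median log2 fold change over the 18 genes was -1.78. These genes too were chosen by the same contrast, so nothing is read from the counts. Past the limits were 21.1% of all genes tested, and 94.6% of the 504 listed genes outside the 40 that entered the fit, with 88.1% of these calls lower.

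Of 5 bHLH genes, 4 were lower and 1 was higher in *mads1*. HORVU.MOREX.r3.7HG0682660 was at 8.13, 8.19 and 6.31 FPKM in *mads1*, against 31.9, 28.8 and 31.9 FPKM in WT, a log2 fold change of -1.91 (standard error 0.11). ILI1 binding bHLH 1 (IBH1, HORVU.MOREX.r3.2HG0202180) is known in rice as an inhibitor of cell elongation that the small protein ILI1 counteracts. It was at 0.43, 0.13 and 0.30 FPKM in *mads1*, against 5.23, 1.73 and 3.13 FPKM in WT, where replicate 1 was 2.15 times the mean of the other WT libraries. IBH1 entered the fit through WT alone. HORVU.MOREX.r3.7HG0666110, with a log2 fold change of -1.22, and HORVU.MOREX.r3.3HG0266110, with -0.86, differed less. HORVU.MOREX.r3.4HG0406540 was higher, at 19.3 ± 4.64 FPKM in *mads1* and 9.64 ± 1.87 FPKM in WT (SD, n = 3 each).

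The 5 genes annotated as integrase-type DNA-binding proteins, a label that annotations use for the AP2/ERF family of plants, were all lower in *mads1*. The largest difference was that of HORVU.MOREX.r3.6HG0578240, at 7.23, 8.58 and 4.65 FPKM in *mads1*, against 35.2, 25.5 and 26.6 FPKM in WT. HORVU.MOREX.r3.7HG0719680 followed with 5.17, 7.51 and 2.36 FPKM in *mads1*, against 18.6, 13.6 and 14.5 FPKM in WT. In both genes *mads1* replicate 3 was the lowest and WT replicate 1 the highest. The other 3 had log2 fold changes of -1.13, -0.98 and -0.70, and the gene with the smallest of these, HORVU.MOREX.r3.6HG0582480, was the most highly expressed of the family, at 22.2 ± 0.973 FPKM in *mads1* and 36.8 ± 3.08 FPKM in WT (SD, n = 3 each). HORVU.MOREX.r3.1HG0058140 was no longer past the limits without WT replicate 1 (log2 fold change -0.86) or WT replicate 3 (-0.93), or without the filter on low values (-0.98).

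The WRKY genes differed in direction. WRKY3 (HORVU.MOREX.r3.2HG0128680) was higher, at 14.7, 17.1 and 14.3 FPKM in *mads1*, against 9.00, 6.39 and 5.78 FPKM in WT. WRKY33 (HORVU.MOREX.r3.3HG0304380) was lower, at 0.34, 0.37 and 0.10 FPKM in *mads1*, against 1.92, 1.17 and 1.26 FPKM in WT, and entered the fit through WT alone. In *Arabidopsis* the namesakes of both act in the response to fungi that kill plant tissue. WRKY28 (HORVU.MOREX.r3.3HG0278140), whose namesake promotes synthesis of the defence hormone salicylic acid, was under the limit on low values, at 0.45, 0.50 and 0.32 FPKM in *mads1* and 2.39, 1.06 and 0.83 FPKM in WT.

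Both GRAS genes, of the family that holds the DELLA and SCARECROW proteins, were lower in *mads1*. HORVU.MOREX.r3.4HG0408620 was at 12.0, 10.2 and 14.4 FPKM in *mads1*, against 113, 99.5 and 96.9 FPKM in WT. With a WT mean 8.48 times the *mads1* mean and a standard error of 0.12 on its log2 fold change of -2.99, it combined a large difference with a high WT level and a narrow spread. HORVU.MOREX.r3.5HG0530060 was at 0.60, 0.47 and 0.82 FPKM in *mads1*, against 2.53, 3.05 and 2.34 FPKM in WT, and entered the fit through WT alone.

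The PLATZ and DOF families, both of zinc finger proteins, each held 1 gene higher and 1 lower in *mads1*. The PLATZ gene HORVU.MOREX.r3.6HG0571240 was at 63.6, 56.3 and 66.1 FPKM in *mads1*, against 16.6, 23.5 and 18.6 FPKM in WT. Its relative HORVU.MOREX.r3.7HG0690090 was at 3.31, 1.99 and 1.69 FPKM in *mads1*, against 7.64, 4.52 and 6.20 FPKM in WT. PLATZ proteins bind DNA rich in A and T, and in rice a member of the family affects grain size. Cycling DOF factor 3 (CDF3, HORVU.MOREX.r3.2HG0111280), named after *Arabidopsis* proteins that delay flowering under the control of the circadian clock, was at 78.1, 73.8 and 77.5 FPKM in *mads1*, against 14.7, 18.2 and 18.7 FPKM in WT. On the FPKM + 1 scale its log2 fold change of 2.10 (standard error 0.10) was the largest among the 7 higher genes, with a *mads1* mean 4.45 times the WT mean. The other DOF gene, HORVU.MOREX.r3.2HG0187570, was at 17.5, 13.6 and 15.9 FPKM in *mads1*, against 24.9, 23.9 and 26.6 FPKM in WT, and without *mads1* replicate 2 its log2 fold change of -0.56 fell short of the 1.5-fold limit.

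Both lateral organ boundaries (LOB) domain genes were higher in *mads1*. Genes of this plant family are known for expression at the base of lateral organs, where these meet the meristem. HORVU.MOREX.r3.3HG0306540 was at 23.1, 21.1 and 21.8 FPKM in *mads1*, against 9.29, 10.1 and 11.1 FPKM in WT. HORVU.MOREX.r3.5HG0465420 was at 3.37, 1.66 and 3.42 FPKM in *mads1*, against 0.62, 0.48 and 0.80 FPKM in WT. The second of these entered the fit through *mads1* alone, and its ratio of means, 4.45, was close to that of CDF3, although its log2 fold change on the FPKM + 1 scale was 1.19.

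The other 8 genes are the single members of their families among the 40, as grouped by annotation words, and 7 of them were lower in *mads1*. Outside the 40, the list holds further genes of the bZIP and heat shock factor kinds. The S1FA-like gene (HORVU.MOREX.r3.2HG0165730), named after a small protein of spinach that binds the promoter of a plastid ribosomal protein gene, had the largest log2 fold change of the 40 on the FPKM + 1 scale, at 2.19, 6.32 and 1.62 FPKM in *mads1*, against 80.1, 43.5 and 36.2 FPKM in WT. Its log2 fold change was -3.70 (standard error 0.41), and -3.37 without WT replicate 1. HSFA6B (HORVU.MOREX.r3.2HG0134940), a heat shock factor that takes part in responses to heat and abscisic acid in *Arabidopsis*, was at 1.26, 1.19 and 1.35 FPKM in *mads1*, against 7.98, 8.56 and 7.39 FPKM in WT. These 2 genes differed in spread, since the highest WT library was 2.01 times the mean of the other WT libraries in the S1FA-like gene, whereas the WT values of HSFA6B had an SD of 0.585 FPKM around a mean of 7.98 FPKM.

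Some single members were highly expressed in both genotypes. TCP5 (HORVU.MOREX.r3.1HG0077830), named after an *Arabidopsis* protein of the class that restrains cell proliferation in leaves and petals, was at 78.3, 77.5 and 56.9 FPKM in *mads1*, against 118, 114 and 120 FPKM in WT. The HD-ZIP gene annotated as HB-4 (HORVU.MOREX.r3.7HG0648180), whose namesake acts in the response of *Arabidopsis* to shade, was at 46.5, 44.2 and 32.6 FPKM in *mads1*, against 98.8, 76.5 and 83.5 FPKM in WT. In both genes *mads1* replicate 3 was the lowest library. The GATA zinc finger gene (HORVU.MOREX.r3.5HG0448250) had the highest level of the 40, at 171, 216 and 134 FPKM in *mads1*, against 300, 236 and 250 FPKM in WT. The highest *mads1* library and the lowest WT library lay close to each other. Its log2 fold change of -0.61 was short of 1.5-fold without *mads1* replicate 3 (-0.44), without WT replicate 1 (-0.51) and after scaling the libraries to the same total (-0.54) or to the same quantiles (-0.49), and without *mads1* replicate 1 (-0.61) it was not past the limit on adjusted p.

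The gene annotated as a sequence-specific DNA binding transcription factor (HORVU.MOREX.r3.5HG0505190) was at 4.48, 5.28 and 2.06 FPKM in *mads1*, against 9.69, 12.5 and 13.4 FPKM in WT. The single-strand DNA-binding gene (HORVU.MOREX.r3.5HG0509070) was at 51.5, 46.7 and 44.0 FPKM in *mads1*, against 124, 113 and 109 FPKM in WT. Single-strand DNA-binding proteins are known for DNA replication and repair rather than for transcription. The bZIP gene (HORVU.MOREX.r3.6HG0573350) was listed at 0 in each *mads1* library and at 0.74, 0.18 and 0.24 FPKM in WT, under the limit on low values and too low for a statement on its level.

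**Figure D2:**
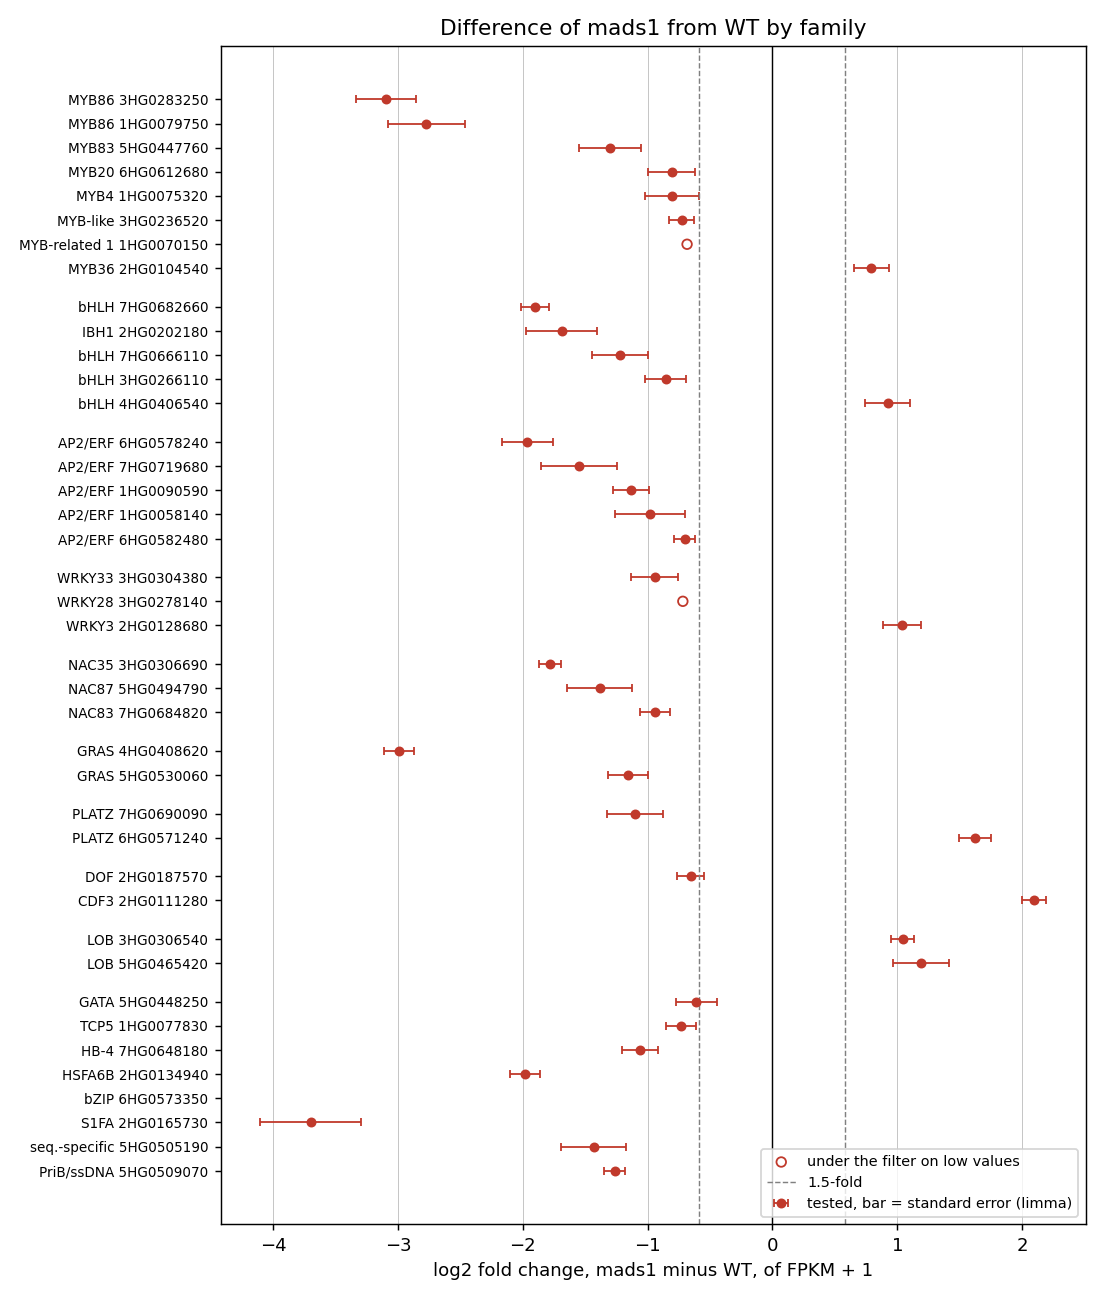
Log2 fold change of *mads1* minus WT on the FPKM + 1 scale for each gene, ordered by family, with bars for the standard error from limma, open circles for genes under the limit on low values and dashed lines at 1.5-fold. The LOB genes both lie on the right, the AP2/ERF, NAC and GRAS genes all lie on the left, and the bZIP gene, listed at 0 in *mads1*, has no point.

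Families of more than 1 gene were thus of 3 kinds. The families are groups by annotation words within the 40 genes. All members were lower in the AP2/ERF, NAC and GRAS families, and both were higher in the LOB family. The MYB, bHLH, WRKY, PLATZ and DOF families held genes of both directions. Outside the 40, the list holds further genes of the AP2/ERF kind and a further NAC gene. The gene annotated as related to AP2.7 (*INT-M*) was higher, at means of 37.0 FPKM in *mads1* and 23.3 FPKM in WT. Those annotated as ethylene responsive element binding factor 4, C-repeat/DRE binding factor 2 and dehydration response element B1A were lower. The NAC gene, annotated as a NAC (No Apical Meristem) domain regulator (HORVU.MOREX.r3.7HG0644400), was lower too and entered the fit through WT alone. It was at 0.20, 0.56 and 0.14 FPKM in *mads1*, against 7.73, 4.62 and 4.21 FPKM in WT. Whether the families differ from each other was not tested. Of the 5 genes with a log2 fold change of at least 2 in size, 4 were lower (the S1FA-like gene, both MYB86 genes and the GRAS gene on chromosome 4H) and 1 was higher (CDF3). The genes of the list outside the 40, 565 in all, had 420 lower and 57 higher among the 504 in the fit and a median log2 fold change of -1.15 there.

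In *mads1* the mean levels of the 40 genes ran from 0 FPKM (the bZIP gene) to 174 FPKM (the GATA gene), with a median of 3.66 FPKM. In WT they ran from 0.387 to 262 FPKM between the same genes, with a median of 9.91 FPKM. In WT 7 genes were at 50 FPKM or more and 11 were under 5 FPKM. The identifiers place 6 of the 40 genes on chromosome 1H, 7 each on 2H, 3H and 5H, 2 on 4H, 5 on 6H and 6 on 7H.

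A second annotation of the older identifiers, from rice, was at hand for 20 of the 40 genes in the shortened table of CUT&Tag targets used here. It named the same kind of protein for 18 of them, among others AP2 domain proteins for the integrase-type genes on 1H and a heat stress factor for HSFA6B, and gave no kind for CDF3 and IBH1. The older and the newer identifier named different chromosomes for 1 of the 40 genes, the MYB86 gene HORVU.MOREX.r3.3HG0283250, and the older identifier of the bZIP gene is not placed on a chromosome. The annotation of these rests on how the identifiers were paired. Over the whole list the chromosomes differed for 25 genes, and 9 had an older identifier that is not placed. Without the MYB86 gene and the bZIP gene, 29 of the 36 genes left in the fit were lower and 7 were higher.

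The spread between libraries of one genotype was not the same in all libraries. Among the 30 genes lower in *mads1*, *mads1* replicate 3 was above the *mads1* mean in 9 genes and WT replicate 1 was above the WT mean in 25. Among the 7 genes higher in *mads1*, *mads1* replicate 2 was above the *mads1* mean in 1 gene and WT replicate 1 was above the WT mean in 1, each time WRKY3. Over all genes tested, *mads1* replicate 2 was above the *mads1* mean in 42.2% of genes, *mads1* replicate 3 in 55.7% and WT replicate 1 above the WT mean in 43.6%. In WT replicate 1 the regulators lower in *mads1* were thus mostly above, and those higher in *mads1* mostly below, the other WT libraries. WT replicate 1 exceeded 1.5 times the mean of the other WT libraries in 10 of the 40 genes, 4 of them MYB genes, and in 8 of the 37 in the fit (21.6%), against 5.25% of all genes tested. It did so in 38.8% of the 565 other genes of the list, a share that takes in genes under the limit on low values. Among the 16 lower genes matched by the lignin words, *mads1* replicate 2 was above the *mads1* mean and WT replicate 1 above the WT mean in all 16. What distinguishes these libraries was not tested, and the labels name no batch. Without WT replicate 1, 27 genes were lower and 7 higher, with a median log2 fold change of -0.95.

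**Figure D3:**
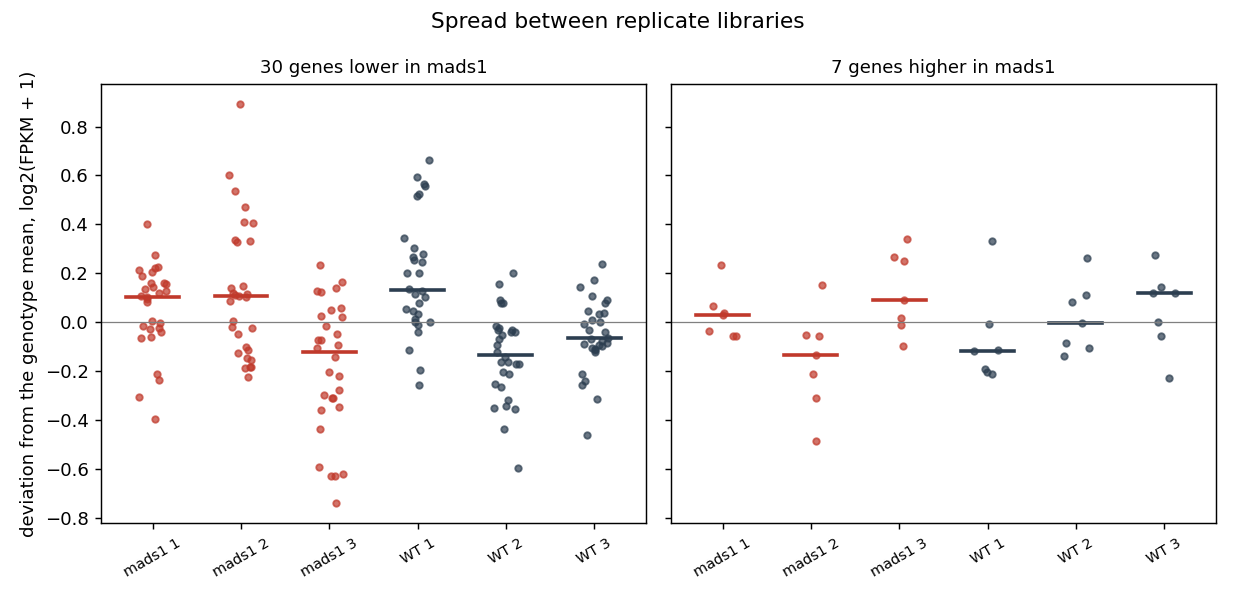
Deviation of each library from the mean of its genotype on log2(FPKM + 1), with 1 point per gene and a line at the median, for the 30 genes lower (left) and the 7 genes higher (right) in *mads1*. For the lower genes the median of WT replicate 1 lies at 0.13 and that of WT replicate 2 at -0.13, while for the higher genes WT replicate 1 lies at -0.12.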

How the data were processed

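RNA-seq of 3 *mads1* and 3 WT samples was analysed, grouped by their labels. The authors trimmed the reads (the submitters' processing notes name Trimmomatic), aligned them with a barley genome and deposited FPKM per gene, for which the notes name RSEM 1.3.3. The aligner and the genome version are not stated in the sources used here, but the gene identifiers carry the name MOREX.r3. No counts were used, so the authors' test of counts with DESeq2 was not repeated, and depth and its precision are unknown. RSEM divides reads between similar genes by estimation, which can blur close copies.

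Here log2(FPKM + 1) was fitted with limma 3.58.1 in R 4.3.3 (lmFit, eBayes with a trend) where 3 or more libraries reached 1 FPKM, with Benjamini-Hochberg adjustment across the 17996 genes left. Fold changes on this scale understate those of genes with low values. The fit was tested on simulated data. The genes, families and lists were chosen with earlier results of these data known. The 2 genes with the largest change of each family, and each single-member family, are given per library. The replicates are separate pools of plants. Alternatives were other pseudocounts, filters and scalings, no trend, the replicate number as a block, no limit on fold change, each library left out, and genes of doubtful identity left out. Annotations and identifier pairs are the study's. The planned search of promoter and protein sequences was not made.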

Additional observations from a re-analysis of the deposited data

How the results depend on the processing

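With pseudocounts of 0.5 and 0.1 the median log2 fold change of the genes in the fit was -1.24 and -1.28, against -1.06 with 1. Leaving out each library in turn gave medians from -1.09 to -0.91, the smallest in size without *mads1* replicate 3, with 27 to 30 genes lower and 7 higher in each fit. Under the other alternatives 21 to 30 genes were lower and 6 to 7 higher, with 21 and 6 under a filter at 5 FPKM, which removes genes by their level. Deviations of same-numbered libraries had r across genes of -0.07, -0.28 and 0.20 for replicates 1, 2 and 3. Between *mads1* replicate 2 and WT replicate 1, r was 0.40. Deviations within a genotype are tied to each other, so these values cannot settle whether the numbers pair samples. With the replicate number as a block, 30 genes were lower and 7 higher. The median stayed at -1.06, since in a balanced design the block cannot change a fold change. Of 545 fold changes of single genes under the alternatives, 12, of 4 genes, were no longer past the limits, where the cause was not tested. The 4 genes are the GATA gene, a DOF gene, MYB4 and the AP2/ERF gene HORVU.MOREX.r3.1HG0058140. No fold change reversed its sign, but most alternatives could not have reversed one. Without overlap between genotypes, leaving out a library or changing the pseudocount cannot do so. The filters, the trend and the block leave each fold change as it is, so only the scalings could have reversed a sign. Without a filter on low values the MYB-related gene was lower and the WRKY28 and bZIP genes were not past the limits. Depth is unknown, so it cannot be said how far low values are limited by it.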

Other observations

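Further regulators of the list of targets carry annotations that the words above did not match. Of 20 such genes, 13 were lower and 3 higher in *mads1*, 1 was not past the limits and 3 were under the limit on low values, in a contrast that the list itself was drawn from. Past these limits were 21.1% of all genes tested and 94.6% of the 504 listed genes in the fit outside the 40 regulators, with 88.1% of these calls lower, so nothing is read from the counts. All 5 BEL1-like homeodomain genes, of a family whose proteins pair with KNOTTED-like proteins, were lower, with log2 fold changes from -2.59 to -0.86. The largest of these, on the FPKM + 1 scale, was that of a BEL1-like homeodomain 6 gene (HORVU.MOREX.r3.4HG0402730), at 0.09, 0.35 and 0.29 FPKM in *mads1*, against 10.3, 4.53 and 5.59 FPKM in WT. BEL1-like homeodomain 2 (HORVU.MOREX.r3.1HG0052320) was listed at 0 in each *mads1* library and at 2.32, 1.33 and 1.45 FPKM in WT. Both of these entered the fit through WT alone. In all 5, WT replicate 1 was the highest WT library. It was so in 78.4% of the 565 listed genes outside the 40, low values included, and in 33.9% of all genes tested.

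The genes annotated as C-repeat/DRE binding factor 2 (HORVU.MOREX.r3.5HG0497560) and dehydration response element B1A (HORVU.MOREX.r3.5HG0497530), AP2/ERF proteins known in *Arabidopsis* for the response to cold, both have identifiers on chromosome 5H. The first was listed at 0 in each *mads1* library and at 1.98, 1.37 and 1.83 FPKM in WT, through which alone it entered the fit, and the second was at 1.05, 0.71 and 0.51 FPKM in *mads1*, against 3.52, 2.10 and 2.48 FPKM in WT. In the opposite direction, the gene annotated as TGACG motif-binding factor 6 (HORVU.MOREX.r3.3HG0260410), a bZIP protein, was at 45.0, 42.9 and 52.0 FPKM in *mads1*, against 27.3, 27.6 and 29.8 FPKM in WT.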
